A study of Homo sapiens with 12 samples.

Results

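Transcript levels of 39 genes that repair DNA double-strand breaks were followed after CRISPR disruption of WRN, the RecQ-family helicase and exonuclease on which many microsatellite-unstable cancer cells depend. The genes were chosen by symbol from a list of homologous recombination, Fanconi anaemia, end-joining and break-signalling genes. The list was made with earlier results of these data known. All 39 were found among the 25343 genes of the deposited count table, where MRE11A and H2AFX are older symbols of MRE11 and H2AX, and all 39 were among the 14199 genes that passed the filter on low counts. The cells were SW48, a colorectal cancer line, and OVK18, an ovarian cancer line, and all of them expressed Cas9. Each line was transduced with a control guide that cuts an intergenic site on chromosome 2 (sgCh2-2) or with 1 of 2 guides against WRN (sgWRN2 or sgWRN3), and was harvested 72 h later. Messenger RNA was sequenced in bulk, with 2 libraries (A and B) in each of the 6 groups. The labels do not say whether A and B came from separate cultures, nor whether the cells were clones or mixed populations, so the p-values measure only the spread between these libraries.

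Double-strand breaks are joined by several routes. In homologous recombination the MRE11-RAD50-NBN complex and CtIP (RBBP8) trim the ends, BRCA1-BARD1, PALB2 and BRCA2 prepare the single-stranded tails for strand exchange, and XRCC2, XRCC3, RAD51C, RAD51D and the RAD54 proteins help them to pair with the sister chromatid, which is present only after replication. The Fanconi core complex attaches ubiquitin to FANCI-FANCD2 at blocked forks and interstrand crosslinks. Ku (XRCC5 and XRCC6), XRCC4, XLF (NHEJ1) and LIG4 ligate ends directly at any stage of the cell cycle, and POLQ joins ends through short homologies. H2AX, MDC1, RNF8, RNF168, 53BP1 (TP53BP1) and RIF1 mark the chromatin around a break and steer the choice between the routes. Many recombination and Fanconi genes are transcribed mainly in S and G2 phase, whereas Ku is abundant throughout the cycle.

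Library totals ran from 15423162 to 32581625 counts, and the lowest count of any of the 39 genes in any library was 78 (FANCB). Within each group A and B differed by more than counting error (chi-square per gene of 8.68 to 24.97 over the 6 groups). Levels below are in CPM (counts divided by the TMM-adjusted library total) unless FPKM, which also divides by transcript length, is named. Each fold change has its standard error (SE) and a p adjusted by Benjamini-Hochberg over all 14199 genes, both from quasi-likelihood fits in edgeR, and a gene is said to have risen or fallen only where the adjusted p was under 0.05. WRN itself stood at 91.2 and 112 CPM in the controls, 37.2 and 34.1 under sgWRN2, and 42.3 and 56.9 under sgWRN3 in SW48, and at 32.04 and 39.8 CPM in the controls, 22.01 and 20.99 under sgWRN2, and 22.2 and 22.97 under sgWRN3 in OVK18. It fell in SW48 with sgWRN2 (log2 fold change -1.51, SE 0.162, adjusted p = 0.000461), and did not pass in OVK18 with sgWRN2 (log2 fold change -0.74, SE 0.162, adjusted p = 0.0658). With sgWRN3 it passed neither in SW48 (log2 fold change -1.03, SE 0.159, adjusted p = 0.438) nor in OVK18 (log2 fold change -0.67, SE 0.161, adjusted p = 1), though in each line the 4 libraries with a WRN guide were lower in WRN than either control. Of 8 intestinal markers, CDX2, HNF4A, CEACAM5, CDH17 and LGR5 were between 87.4 (CDX2) and 12.3 CPM (LGR5) in the SW48 controls, VIL1 was at 1.82, KRT20 was near 0 and CDX1 at 0; all 8 were at or near 0 in OVK18. Of 7 Mullerian and ovarian markers, PAX8, MSLN, WFDC2 and ESR1 were at or near 0 in OVK18, WT1 was at 0.911 CPM, and HOXA10 and HOXA11 were at 34.5 and 39.6, while SW48 had MSLN at 37.5, HOXA10 at 58.9, HOXA11 at 15.8 and PAX8 at 4.31. Of 7 fibroblast markers, COL3A1 (436 CPM) and PDGFRA (22.4) were expressed in the OVK18 controls and the other 5 were under 2 CPM. Of 7 leukocyte and endothelial markers, CD3E and PECAM1 were at 0 counts in all 12 libraries, the SW48 controls had CD68 at 7.38 CPM and PTPRC at 3.23, and the OVK18 controls had CD68 at 5.297. The summed level of this last list was 12.9 to 14.1 CPM with sgWRN2 in SW48 and 10.6 to 11.2 in the controls, and that of the fibroblast list was 409.7 to 418 with sgWRN2 in OVK18 and 446 to 481 in the controls; their part in the results was not tested. The A and B libraries also differed: B was above A for 29 of the 39 repair genes with sgCh2-2 and 26 with sgWRN3 in SW48, but for 16 with sgWRN2. In OVK18 the same counts were 24, 26 and 13. These counts were not made over all genes, so they are not shown to be particular to the repair genes.

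In the control libraries the repair genes spanned a wide range per transcript length. The Ku subunits stood far above the rest: XRCC6 was listed at 215 ± 14.8 FPKM in SW48 and 180.3 ± 12.4 in OVK18 (SD, n = 2), and XRCC5 at 171 ± 9.45 and 183 ± 6.38. The order of the 2 subunits does not exceed their spread in OVK18. RBBP8 followed in SW48 (42.2 ± 0.0622 FPKM) and RAD50 in OVK18 (43.3 ± 2.81 FPKM). The median over the 38 genes other than MDC1 was 7.71 FPKM in SW48 and 7.52 in OVK18. BRCA2, a mediator of homologous recombination, was among the lowest in both lines (3.17 ± 0.295 and 2.203 ± 0.0614 FPKM), as were FANCB (3.19 ± 0.325 and 1.93 ± 0.107) and POLQ (3.87 ± 0.486 and 2.71 ± 0.0637). MDC1 is listed at 0 in all FPKM columns although its counts correspond to 69.7 and 57.1 CPM in the SW48 controls, so its FPKM was not used.

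With sgWRN2 in SW48, 11 of the 39 repair genes fell and none rose. They were BRCA1 and BARD1, RAD51AP1, RAD54L and RAD54B, FANCA and FANCC, FANCI, FANCD2 and BRIP1, and POLQ, and their fitted levels were 50.2 to 63.3 percent of the control level. Over all 14199 genes 1.95 percent fell and 3.08 percent changed in either direction in this comparison, against 28.2 percent of the repair genes. Because the list was made with earlier results of these data known, these shares are a description only. The median log2 fold change of the 39 was -0.33, beside 0.02 over all genes. In bulk RNA, fewer cells in the phases that express a gene and less of its RNA per cell cannot be told apart. All 39 values are shown by library in the map of levels relative to the controls.

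**Figure D1:**
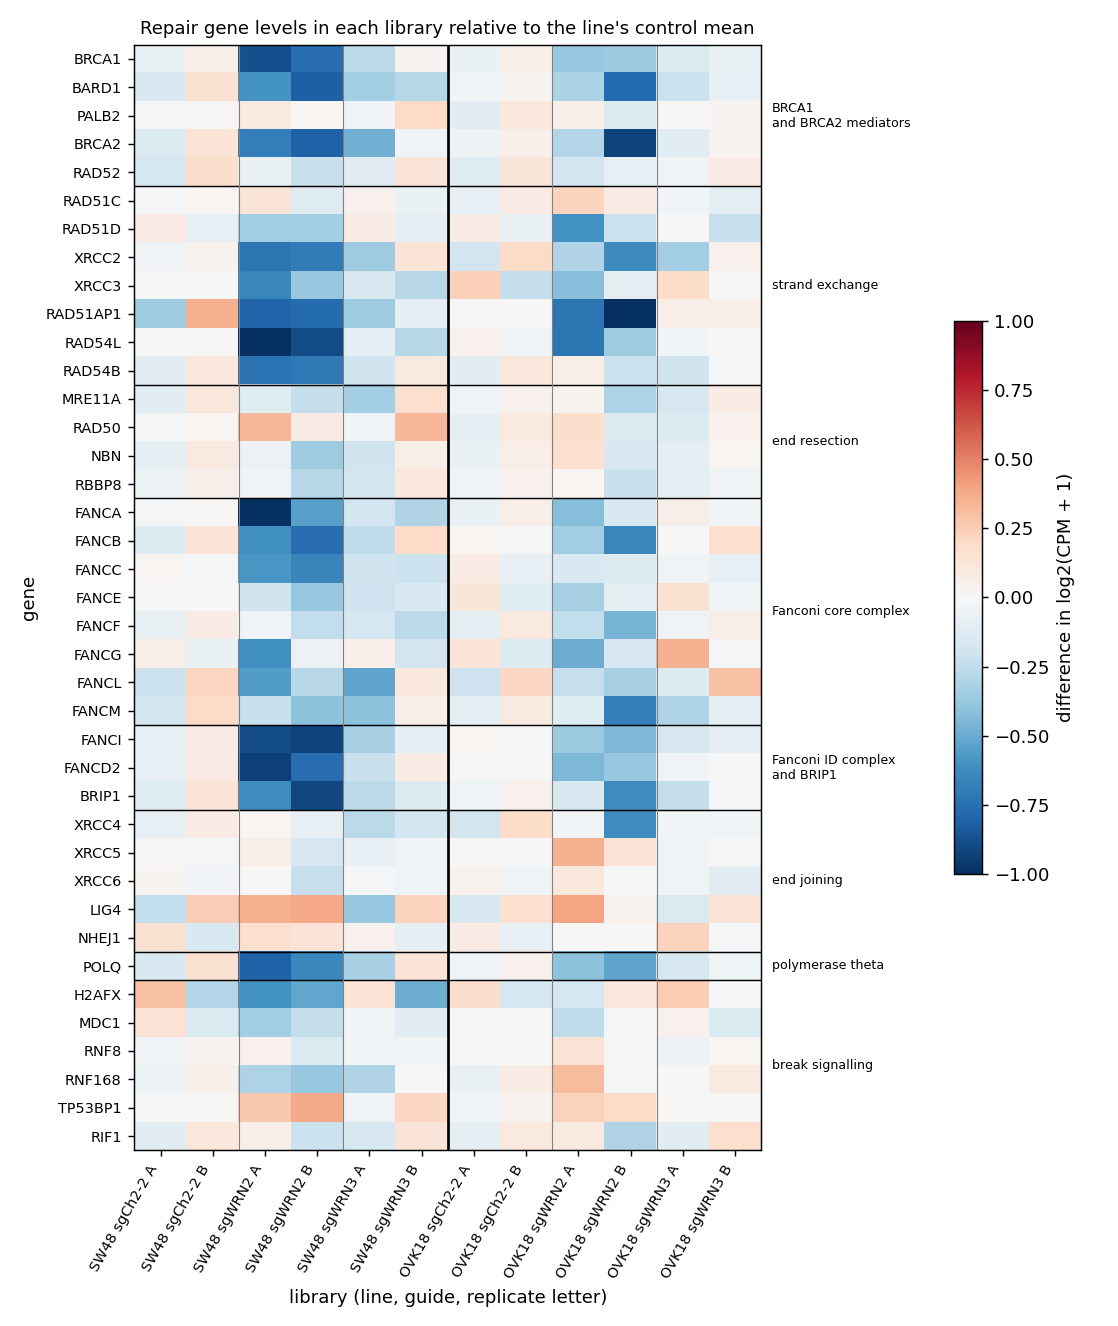
Level of each of the 39 repair genes (rows, grouped by role) in each of the 12 libraries (columns), as the difference in log2(CPM + 1) from the mean of the 2 control libraries of the same line; blue is lower and red is higher, and the colour scale ends at -1 and 1. In SW48 both sgWRN2 columns are blue for the 11 genes that fell, while the end-joining and end-resection rows stay pale in most libraries.

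FANCI, FANCD2 and BRIP1, 3 Fanconi genes that act downstream of the core complex, all fell. FANCI, the partner of FANCD2, stood in SW48 at 112 and 125 CPM in the controls, 63.1 and 61.7 under sgWRN2, and 93.7 and 111 under sgWRN3. The fitted sgWRN2 level was 52.8 percent of the control level, and these groups did not overlap (log2 fold change -0.92, SE 0.107, adjusted p = 0.000749). FANCD2, which is clamped onto DNA together with FANCI once both carry ubiquitin, stood at 62.1 and 70.02 CPM in the controls, 34.1 and 38.5 under sgWRN2, and 56.3 and 69.7 under sgWRN3. Its sgWRN2 libraries lay below all 4 others, while the sgWRN3 libraries overlapped the controls (log2 fold change -0.86, SE 0.125, adjusted p = 0.00245 for sgWRN2). BRIP1, the helicase FANCJ that binds BRCA1, stood at 49.8 and 59.9 CPM in the controls, 35.04 and 28.6 under sgWRN2, and 45.4 and 49.7 under sgWRN3, and it fell with sgWRN2 (log2 fold change -0.78, SE 0.171, adjusted p = 0.0282).

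Of the 5 mediator genes, the BRCA1-BARD1 ubiquitin ligase fell. BRCA1 stood at 58.5 and 64.3 CPM in the controls, 32.9 and 35.7 under sgWRN2, and 50.8 and 62.4 under sgWRN3, so that both sgWRN2 libraries were lower than every other SW48 library (log2 fold change -0.84, SE 0.123, adjusted p = 0.00252). BARD1 stood at 44.5 and 55.5 CPM in the controls, 32.6 and 27.8 under sgWRN2, and 39.004 and 40.5 under sgWRN3; here the sgWRN3 libraries also lay below both controls, and sgWRN2 passed the test (log2 fold change -0.73, SE 0.164, adjusted p = 0.0339). BRCA2 was at 42.8 and 52.1 CPM in the controls, 28.99 and 26.5 under sgWRN2, and 33.5 and 46.4 under sgWRN3 and did not pass despite a similar size (log2 fold change -0.77, SE 0.207, adjusted p = 0.0757). PALB2, the bridge between BRCA1 and BRCA2, had a log2 fold change of 0.06, and RAD52, an annealing protein, of -0.16, neither past the test.

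Among the genes of strand exchange, the motor proteins and RAD51AP1 fell. RAD54L, the RAD54 translocase that drives strand invasion, had the lowest fold change of all 39 genes: it stood at 33.9 and 33.6 CPM in the controls, 16.2 and 17.7 under sgWRN2, and 31.7 and 27.4 under sgWRN3, and its sgWRN2 libraries were clearly apart from the other 4 (log2 fold change -0.99, SE 0.148, adjusted p = 0.00295). Its paralog RAD54B stood at 31.7 and 36.7 CPM in the controls, 20.1 and 20.3 under sgWRN2, and 29.5 and 36.5 under sgWRN3 (log2 fold change -0.76, SE 0.155, adjusted p = 0.0203 for sgWRN2). RAD51AP1, which stimulates joint-molecule formation, stood at 22.3 and 37.1 CPM in the controls, 16.1 and 16.5 under sgWRN2, and 22.3 and 26.96 under sgWRN3. The 2 control libraries of RAD51AP1 lay far apart, and its adjusted p was the highest of the 11 (log2 fold change -0.86, SE 0.21, adjusted p = 0.0491); without SW48 sgCh2-2 replicate B its log2 fold change was -0.49. Its call was lost in 12 of 19 alternative fits. Of XRCC2, XRCC3, RAD51C and RAD51D, which form small complexes that assist strand exchange, XRCC2 was at 41.9 and 43.9 CPM in the controls, 25.4 and 26.1 under sgWRN2, and 33.3 and 47.3 under sgWRN3 (log2 fold change -0.74, SE 0.202, adjusted p = 0.0817), and the log2 fold changes of XRCC3 and RAD51D were -0.54 and -0.37, while that of RAD51C was 0.01. None of these 4 passed.

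In the Fanconi core complex 2 of 8 genes fell. FANCA, a scaffold subunit, stood at 54.3 and 55.4 CPM in the controls, 26.4 and 37.3 under sgWRN2, and 47.9 and 44.3 under sgWRN3, with sgWRN2 A lowest of all (log2 fold change -0.78, SE 0.159, adjusted p = 0.0189). FANCC, which pairs with FANCE and FANCF, stood at 20.5 and 20.04 CPM in the controls, 13.2 and 12.5 under sgWRN2, and 17.5 and 17.4 under sgWRN3, and its replicates were close together in every group (log2 fold change -0.66, SE 0.115, adjusted p = 0.00764). FANCB was at 10.7 and 13.1 CPM in the controls, 7.38 and 6.57 under sgWRN2, and 9.78 and 13.7 under sgWRN3 and did not pass (log2 fold change -0.76, SE 0.204, adjusted p = 0.0757). The log2 fold changes of FANCE, FANCF, FANCG, FANCL and FANCM lay between -0.44 (FANCL, the ubiquitin ligase subunit) and -0.14 (FANCF), and all 8 core genes were below 0. POLQ, the polymerase of microhomology-mediated joining, stood at 39.7 and 49.5 CPM in the controls, 24.9 and 28.004 under sgWRN2, and 35.2 and 48.8 under sgWRN3 and fell with sgWRN2 (log2 fold change -0.75, SE 0.165, adjusted p = 0.0282).

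**Figure D2:**
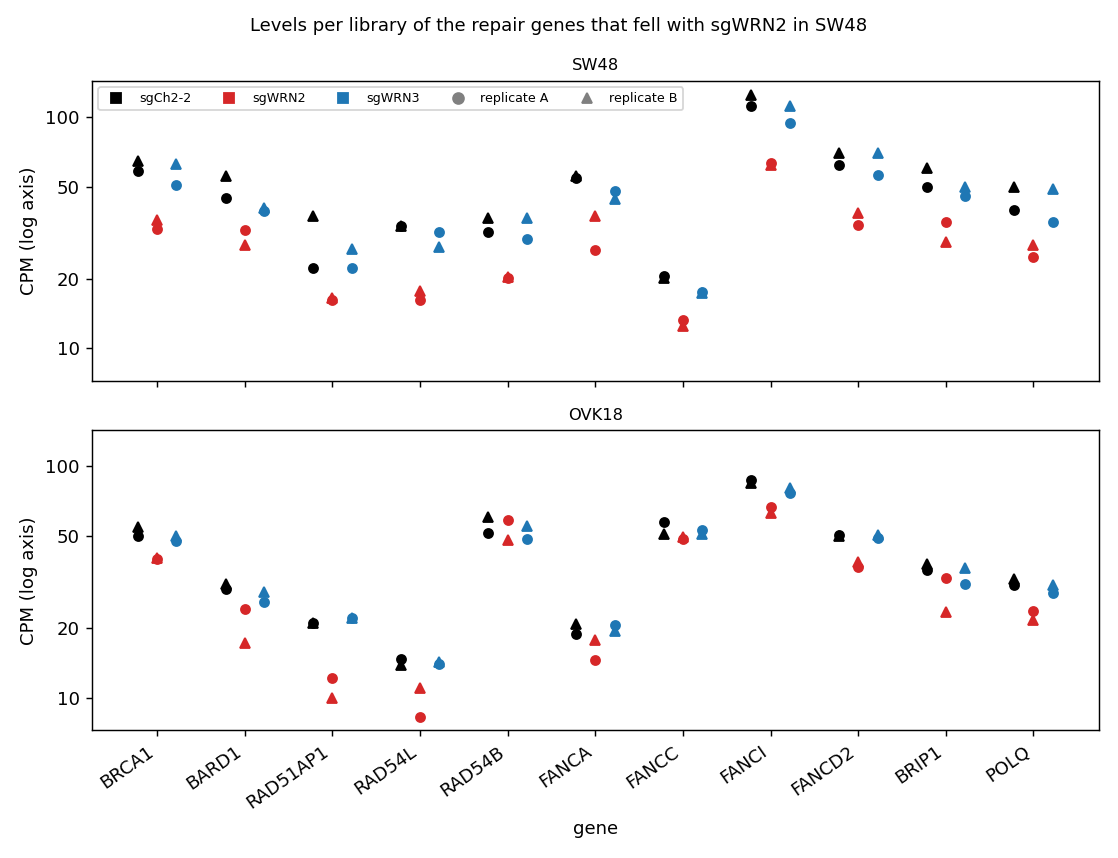
Level of the 11 genes that fell with sgWRN2 in SW48, in CPM on a log axis, with 1 point per library; colours give the guide, circles replicate A and triangles replicate B, and the panels are SW48 (top) and OVK18 (bottom). In SW48 the red sgWRN2 points lie below the black control points for all 11 genes; in OVK18 they do so for 10, the exception being RAD54B.

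No gene of end joining by Ku and LIG4, or of end resection, passed with sgWRN2 in SW48. None of the 5 end-joining genes passed, and their median log2 fold change was -0.03. XRCC5 stood at 762 and 750.4 CPM in the controls, 789 and 674 under sgWRN2, and 716 and 739 under sgWRN3, with a log2 fold change of -0.05 for sgWRN2 (SE 0.102), and XRCC6 at 519 and 498 CPM in the controls, 507 and 433 under sgWRN2, and 502 and 493 under sgWRN3, with -0.11 (SE 0.0969). LIG4, the ligase of this route, was at 16.7 and 23.9 CPM in the controls, 25.8 and 26.5 under sgWRN2, and 15.1 and 23.5 under sgWRN3: both sgWRN2 libraries lay above both controls, yet LIG4 did not pass (log2 fold change 0.38, SE 0.228, adjusted p = 0.558). None of the 4 end-resection genes passed either. The log2 fold change of RAD50 was 0.21 (SE 0.146), with MRE11A at -0.18 (SE 0.178), NBN at -0.20 (SE 0.144) and RBBP8 at -0.16 (SE 0.127). Values this small beside their SE do not settle a sign.

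Break signalling genes had no call among 6. H2AFX, the histone variant phosphorylated at breaks, was at 59.9 and 39.8 CPM in the controls, 31.7 and 33.7 under sgWRN2, and 53.8 and 34.6 under sgWRN3. With sgCh2-2 and with sgWRN3 its A library was far above its B library, and the value did not pass (log2 fold change -0.61, SE 0.233, adjusted p = 0.255). TP53BP1, which shields ends from resection, lay in the other direction: it stood at 44.5 and 45.3 CPM in the controls, 54.4 and 58.6 under sgWRN2, and 43.7 and 51.98 under sgWRN3, with both sgWRN2 libraries above all others (log2 fold change 0.33, SE 0.102, adjusted p = 0.136). DESeq2 called 15 repair genes in this comparison: the 11, TP53BP1 as higher, and BRCA2, FANCB and XRCC2 as lower. It also called more of all genes, 705 against 437 in edgeR. H2AFX was called lower in edgeR with no filter on low counts, where 688 genes were called in all. The log2 fold changes of MDC1, RNF168, RNF8 and RIF1 were -0.30, -0.35, -0.04 and -0.07. In total 23 of the 39 repair genes had both sgWRN2 libraries below both controls, against 17.2 percent of all genes, and 4 (PALB2, RAD50, LIG4 and TP53BP1) had both above, against 21.6 percent.

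The count of 11 was 6 when the letters A and B were added to the fit, and it also depended on single libraries. It was 3 without SW48 sgWRN2 replicate A (FANCI, BRCA1 and FANCD2), 5 without SW48 sgWRN2 replicate B and 5 without SW48 sgCh2-2 replicate B. FANCI, BRCA1 and FANCD2 were called in all 19 alternative fits of this comparison.

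The 250 bases before the start sites of the repair genes were searched for letters known from cell-cycle promoters. Bases after the start site were not searched, nor were any other start sites of the same gene. Promoters came from the RefSeq table of GRCh38.p14, which holds 35 of the 39 genes; FANCI and RAD54B, which fell, and NBN and XRCC5 are not among them. For 31 of the 35, sequence after the start site was found in a transcript of the gene. The 4 E2F-type words TTTGGCGC, TTTCGCGC, TTTCCCGC and TTTGCCGC and the 2 CHR-type words TTTGAA and TTCGAA were searched on both strands. E2F-type words were in 2 of the 35 promoters (5.71 percent, against 2.79 percent of 35116 promoters in all). These were FANCA and FANCC, and the other 7 of the fallen genes searched had none in the window used. For BRCA1 that window was chr17:43170328-43170577. Whether the windows lie at the start sites used in these cells was not tested. CHR-type words were in 6 of 35 (17.1 percent, against 14.3 percent): FANCC, BRIP1 and POLQ, which fell, and H2AFX, MDC1 and RIF1, which did not pass. The sequences shown are the pair with E2F-type words and FANCD2 as a fallen gene with none of the words; they run 5′ to 3′ on the gene's strand, and capitals mark the matches.
FANCC (chr9:95317710-95317959, minus strand): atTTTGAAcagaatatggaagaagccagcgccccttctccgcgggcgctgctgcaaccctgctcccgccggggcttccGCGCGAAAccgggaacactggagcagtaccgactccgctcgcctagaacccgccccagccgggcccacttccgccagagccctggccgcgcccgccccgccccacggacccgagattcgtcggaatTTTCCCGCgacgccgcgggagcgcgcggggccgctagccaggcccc
FANCA (chr16:89816648-89816897, minus strand): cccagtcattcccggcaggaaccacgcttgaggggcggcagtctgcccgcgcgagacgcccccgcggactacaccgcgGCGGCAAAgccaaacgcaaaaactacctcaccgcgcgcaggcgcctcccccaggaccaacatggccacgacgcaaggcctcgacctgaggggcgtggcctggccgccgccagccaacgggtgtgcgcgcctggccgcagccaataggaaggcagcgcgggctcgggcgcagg
FANCD2 (chr3:10026187-10026436, plus strand): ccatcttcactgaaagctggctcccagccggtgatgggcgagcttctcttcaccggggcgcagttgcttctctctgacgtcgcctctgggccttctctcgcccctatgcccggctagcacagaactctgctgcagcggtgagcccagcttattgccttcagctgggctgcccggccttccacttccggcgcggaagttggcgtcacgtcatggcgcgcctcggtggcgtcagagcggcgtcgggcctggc
In FANCC the E2F-type matches begin 172 and 46 bases before the start site, the first on the opposite strand, and in FANCA the match begins 172 bases before it, also on the opposite strand. A match describes letters only.

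No repair gene passed with the other WRN guide. With sgWRN3 in SW48 edgeR called 0 of the 39 repair genes and 0 of all 14199 genes (0 percent), with 0 repair genes and 262 of all genes at an unadjusted p under 0.05; DESeq2 called 0 repair genes and 9 genes in all. The 262 are a smaller share of all genes than the 0.05 expected with no change. The p-values here thus ran large, and 0 calls do not show that nothing changed. The median log2 fold change of the 39 was -0.07, with 35 below 0, against 50.1 percent of all genes. Of the 11 genes that fell with sgWRN2, all had values below 0 with sgWRN3 as well, with a median of -0.21 against -0.78; both comparisons use the same control libraries. For 6 of the 11 both sgWRN3 libraries lay below both controls. In total, 12 of the 39 had both libraries below both controls, against 10.6 percent of all genes. BARD1 (-0.33), RAD51AP1 (-0.26) and FANCA (-0.25) had the lowest values of the 11.

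A direct contrast of the guides in SW48 gave 4 repair genes lower with sgWRN2 than with sgWRN3 and none higher, where 0.944 percent of all genes differed (0.655 percent lower). They were FANCI (log2 fold change -0.71, SE 0.108, adjusted p = 0.0104), FANCD2 (log2 fold change -0.79, SE 0.126, adjusted p = 0.014), BRCA1 (log2 fold change -0.72, SE 0.123, adjusted p = 0.0168) and RAD54L (log2 fold change -0.80, SE 0.15, adjusted p = 0.0275). This count was 0 without SW48 sgWRN2 replicate A or B, or without SW48 sgWRN3 replicate B. The other 7 genes that fell with sgWRN2 had differences between the guides from -0.71 (RAD54B) to -0.40 (BARD1) that did not pass.

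With both WRN guides in 1 contrast, only FANCI passed in SW48, where 0.866 percent of all genes changed and 0.613 percent fell. Its log2 fold change was -0.56 (SE 0.09, adjusted p = 0.0154). FANCI was one of 8 repair genes whose 4 libraries with a WRN guide were all lower than either control, against 5.33 percent of all genes; the others were BARD1, XRCC3, RAD54L, FANCA, FANCC, FANCE and BRIP1. RAD54L (log2 fold change -0.59, SE 0.123, adjusted p = 0.0503) and BRCA1 (log2 fold change -0.48, SE 0.103, adjusted p = 0.0586) came next by p. The FANCI call ended in 7 of 20 alternative fits, among them those with the SW48 libraries fitted alone (adjusted p = 0.054), without SW48 sgCh2-2 replicate A (adjusted p = 0.0518) or B (0.216), without SW48 sgWRN2 replicate A (0.0568) or B (0.067), and without all sgWRN2 libraries, where the log2 fold change was -0.21. The count was 3 without SW48 sgWRN3 replicate B or OVK18 sgWRN2 replicate B, and 2 without OVK18 sgWRN2 replicate A. DESeq2 called 7 repair genes in this contrast, and 266 genes in all against 123 in edgeR.

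**Figure D3:**
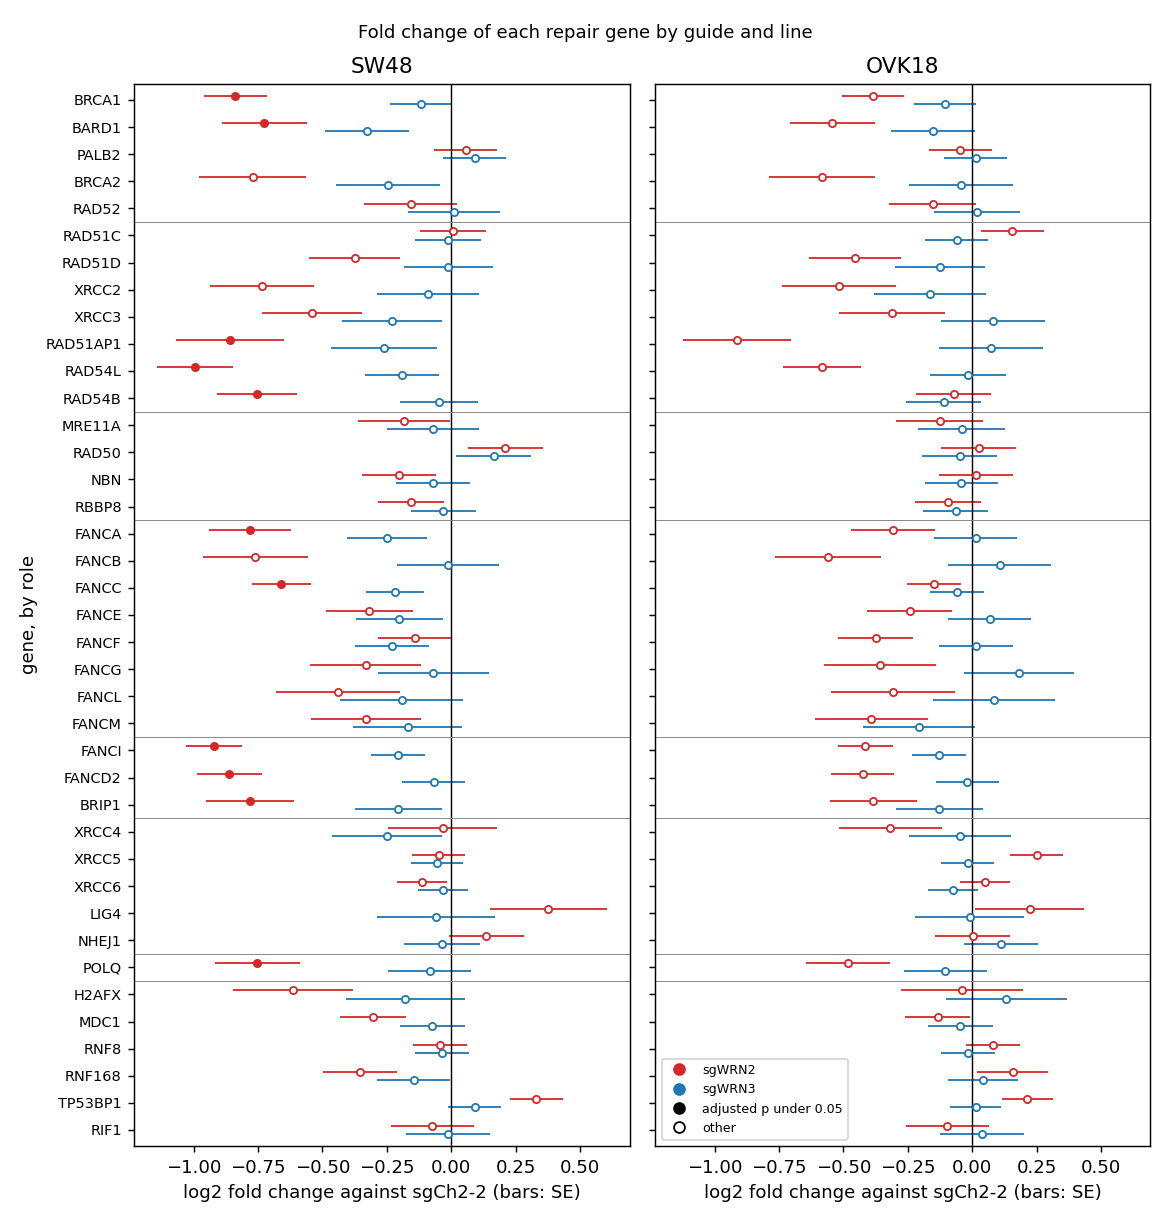
Log2 fold change against sgCh2-2 of each of the 39 repair genes, by role, for sgWRN2 (red) and sgWRN3 (blue) in SW48 (left) and OVK18 (right); bars are SE, and filled points have an adjusted p under 0.05 in edgeR's quasi-likelihood test. Filled points occur for sgWRN2 in SW48 alone, and the red points of the same 11 genes lie left of 0 in OVK18 too.

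In OVK18 no repair gene passed with sgWRN2 in edgeR, where 0.796 percent of all genes did. An unadjusted p under 0.05 was found for 14 of the 39 (1974 of all 14199 genes). DESeq2 called 3 (RAD51AP1, FANCI and RAD54L, all lower), and 406 genes in all against 113 in edgeR. The median log2 fold change of the 39 was -0.24, beside -0.0016 over all genes, and 19 of the 39 had both sgWRN2 libraries below both controls, against 21.4 percent of all genes. RAD51AP1 had the lowest value: it stood at 20.97 and 20.9 CPM in the controls, 12.2 and 9.92 under sgWRN2, and 22.04 and 22.04 under sgWRN3. Its sgWRN2 libraries were well below the other 4, which lay close together (log2 fold change -0.91, SE 0.21, adjusted p = 0.0803). FANCI stood at 87.5 and 84.7 CPM in the controls, 66.5 and 62.7 under sgWRN2, and 76.9 and 80.7 under sgWRN3 (log2 fold change -0.41, SE 0.106, adjusted p = 0.107 for sgWRN2), and RAD54L at 14.8 and 13.9 CPM in the controls, 8.27 and 10.96 under sgWRN2, and 13.98 and 14.3 under sgWRN3 (log2 fold change -0.58, SE 0.153, adjusted p = 0.114). For both genes sgWRN2 lay below every other OVK18 library.

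The remaining genes of the SW48 set were also below 0 with sgWRN2 in OVK18. BRCA1 stood at 49.9 and 54.7 CPM in the controls, 39.9 and 40.3 under sgWRN2, and 47.5 and 49.8 under sgWRN3 (log2 fold change -0.38 for sgWRN2), FANCD2 at 50.6 and 50.2 CPM in the controls, 36.7 and 38.5 under sgWRN2, and 49.2 and 50.3 under sgWRN3 (-0.43), and BARD1 at 29.6 and 30.96 CPM in the controls, 24.1 and 17.3 under sgWRN2, and 25.96 and 28.6 under sgWRN3 (-0.54). The log2 fold change of POLQ was -0.48, with BRIP1 at -0.38, FANCA at -0.31, FANCC at -0.15 and RAD54B at -0.07. All 11 values were thus negative, and 10 of the 11 had both sgWRN2 libraries below both controls. BRCA2, not called in SW48, stood at 32.6 and 35.1 CPM in the controls, 27.5 and 17.4 under sgWRN2, and 31.2 and 34.5 under sgWRN3, with sgWRN2 B far below sgWRN2 A (-0.58). XRCC5 was higher in both sgWRN2 libraries than in all others (1084 and 933 CPM against 851 and 845 with sgCh2-2), without passing (log2 fold change 0.25, SE 0.102, adjusted p = 0.298).

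Across the 39 genes the sgWRN2 log2 fold changes in SW48 and OVK18, which share no library, had Pearson's r of 0.758 and Spearman's rho of 0.759, beside r of 0.132 over all 14199 genes. The value over all genes includes genes at or near 0 counts in 1 line, whereas the 39 had at least 78 counts in every library. It is therefore not from genes of like level. Genes are not independent replicates, and the libraries of both lines share the guide and the letters A and B, so these correlations are descriptions. With sgWRN3 in OVK18 edgeR called 0 repair genes and 0 genes in all (0 percent), with 0 repair genes and 116 of all genes at an unadjusted p under 0.05; DESeq2 called 0 repair genes and 1 gene in all. The 116 are again a smaller share of all genes than 0.05. The median of the 39 was -0.02, and 4 (BRCA1, BARD1, FANCI and XRCC6) had both sgWRN3 libraries below both controls, against 10.5 percent of all genes. With both guides in 1 contrast 0 of 39 passed, where 0.0282 percent of all genes did, with 5 at an unadjusted p under 0.05 (573 of all genes) and 0 by DESeq2. BRCA1, BARD1 and FANCI had all 4 WRN-guide libraries lower than either control, against 3.84 percent of all genes. The 3 smallest p belonged to FANCI (-0.27), BARD1 (-0.35) and RAD51AP1 (-0.42), all at an adjusted p of 1, and RAD51AP1 was 0.0727 without the sgWRN2 libraries. Between sgWRN2 and sgWRN3 in OVK18 0 of 39 passed (0.747 percent of all genes), with 12 at an unadjusted p under 0.05 (2059 of all genes). DESeq2 called 2 of the 39, and 473 genes in all against 106 in edgeR. RAD51AP1 was nearest in edgeR (log2 fold change -0.99, SE 0.211, adjusted p = 0.0584).

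The difference between the lines was tested directly, since a call in SW48 and none in OVK18 does not show that the effects differ. For both guides together 0 of 39 repair genes passed in edgeR (0.0282 percent of all genes), with 2 at an unadjusted p under 0.05 (391 of all genes) and 0 by DESeq2. The FANCC difference (SW48 effect minus OVK18 effect) was -0.33 on the log2 scale and that of FANCI -0.29 (SE 0.129, adjusted p = 1). For sgWRN2 alone, a contrast added after the others were seen, again 0 of 39 passed (0.303 percent of all genes), with 6 at an unadjusted p under 0.05 (889 of all genes) and 0 by DESeq2. Among those 6 RAD54B had the largest difference (-0.68, SE 0.212, adjusted p = 0.42), and RNF168, FANCC and FANCI were each at -0.51. The groups of 2 thus gave no repair gene whose WRN-guide effect differed between SW48 and OVK18 past the threshold.

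Many genes of the cell cycle also fell in SW48 with sgWRN2. In the SW48 sgWRN2 libraries A and B the median log2 level of the 11 fallen genes was -0.81 and -0.76 relative to the controls, that of 35 mitotic genes -0.89 and -1.03, and that of 35 S phase and replication genes -0.66 and -0.69. In the SW48 sgWRN3 libraries the same medians, in that order, were -0.26 and -0.09, -0.34 and -0.16 and -0.13 and -0.19, and in the OVK18 sgWRN2 libraries -0.38 and -0.38, -0.26 and -0.42 and -0.28 and -0.31. The 11 were chosen by their fall in SW48 with sgWRN2. In libraries A and B of that group the median of all 39 repair genes was -0.34 and -0.36. In SW48 with sgWRN2, 34 of 35 mitotic and 26 of 35 S phase genes fell, and 12 of 30 p53-activated genes rose. Over all genes 1.95 percent fell and 3.08 percent changed in either direction in this comparison. These lists too were made with earlier results of these data known. CCNB1, the mitotic cyclin, stood at 183 and 193 CPM in the controls, 89.7 and 81.6 under sgWRN2, and 148 and 151 under sgWRN3, and MCM2, a subunit of the replicative helicase, at 141 and 107 CPM in the controls, 76.2 and 78.5 under sgWRN2, and 122 and 89.5 under sgWRN3. CDKN1A, the p53-induced inhibitor p21, stood at 412 and 326 CPM in the controls, 945 and 1008 under sgWRN2, and 655 and 519 under sgWRN3. The part of cell cycle state in the fall of the repair genes was not tested.

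A further 40 break repair genes outside the 39, also chosen with earlier results of these data known, were examined in the same fit. With sgWRN2 in SW48 the median log2 fold change of the 40 was -0.12. Of the 40, 3 fell, against 1.95 percent of all genes, and none rose. They were EXO1, the long-range resection nuclease (75.6 and 79.2 CPM with sgCh2-2 and 43.8 and 38.2 with sgWRN2; log2 fold change -0.92, SE 0.115, adjusted p = 0.00107), the RecQ helicase BLM (log2 fold change -0.86, SE 0.138, adjusted p = 0.00453), and UBE2T, the ubiquitin-conjugating enzyme of the Fanconi core complex (log2 fold change -0.54, SE 0.111, adjusted p = 0.02). With both guides EXO1 alone passed in SW48 (log2 fold change -0.56, SE 0.0967, adjusted p = 0.0196), and by p it was followed by BLM (-0.49), RMI2 (-0.45) and UBE2T (-0.34). In OVK18 0 of 40 passed with both guides, where EXO1 (-0.26) and the meiotic recombinase DMC1 (-0.38) had the smallest p, then UBE2T (-0.17) and RMI1 (-0.26), each with an adjusted p of 1.

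Between the control libraries of the lines 28 of the 39 repair genes passed the test: SW48 had the higher level of 19 and the lower of 9. The 71.8 percent so called is near the 68.6 percent of all genes (33.9 percent higher and 34.7 percent lower). Of the 7 genes of strand exchange, 5 were higher and 2, RAD51C and RAD54B, lower in SW48. XRCC2 stood at 41.9 and 43.9 CPM in the SW48 controls, and at 8.12 and 10.9 in those of OVK18, the largest difference upward (log2 fold change 2.17, SE 0.21, adjusted p = 1.4e-06). FANCA stood at 54.3 and 55.4 CPM in the SW48 controls, and at 18.9 and 20.8 in those of OVK18 (log2 fold change 1.46, SE 0.16, adjusted p = 4.25e-06), XRCC3 at 20.3 and 20.4 CPM in the SW48 controls, and at 9.75 and 6.75 in those of OVK18 (log2 fold change 1.31, SE 0.196, adjusted p = 7.41e-05), and RAD54L at 33.9 and 33.6 CPM in the SW48 controls, and at 14.8 and 13.9 in those of OVK18 (log2 fold change 1.24, SE 0.146, adjusted p = 8.97e-06). In each of these the SW48 controls lay above the OVK18 controls with no overlap.

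LIG4 and TP53BP1 had the largest differences in the other direction. LIG4 stood at 16.7 and 23.9 CPM in the SW48 controls, and at 64.2 and 80.3 in those of OVK18 (log2 fold change -1.84, SE 0.224, adjusted p = 1.16e-05), and TP53BP1 at 44.5 and 45.3 CPM in the SW48 controls, and at 139 and 145 in those of OVK18 (log2 fold change -1.66, SE 0.102, adjusted p = 1.76e-08). FANCC stood at 20.5 and 20.04 CPM in the SW48 controls, and at 57.5 and 50.99 in those of OVK18 (log2 fold change -1.42, SE 0.109, adjusted p = 1.51e-07), which set it apart from the 7 other core genes: of these FANCA, FANCB, FANCF and FANCM were higher in SW48, and FANCE, FANCG and FANCL did not pass. MRE11A stood at 29.5 and 34.8 CPM in the SW48 controls, and at 76.3 and 81.5 in those of OVK18 (log2 fold change -1.30, SE 0.174, adjusted p = 2.8e-05), while for its partners the log2 fold changes of RAD50 (-0.35) and NBN (0.28) did not pass. RIF1, which acts with 53BP1, was higher in SW48 (0.94). Log2 fold changes were also short of the threshold for XRCC5 (-0.17), XRCC6 (0.20), NHEJ1 (-0.04), BRCA1 (0.23) and MDC1 (0.08). S phase genes were higher in the SW48 controls for 27 of 35 and lower for 1; the part of this in the repair gene differences was not tested.

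**Figure D4:**
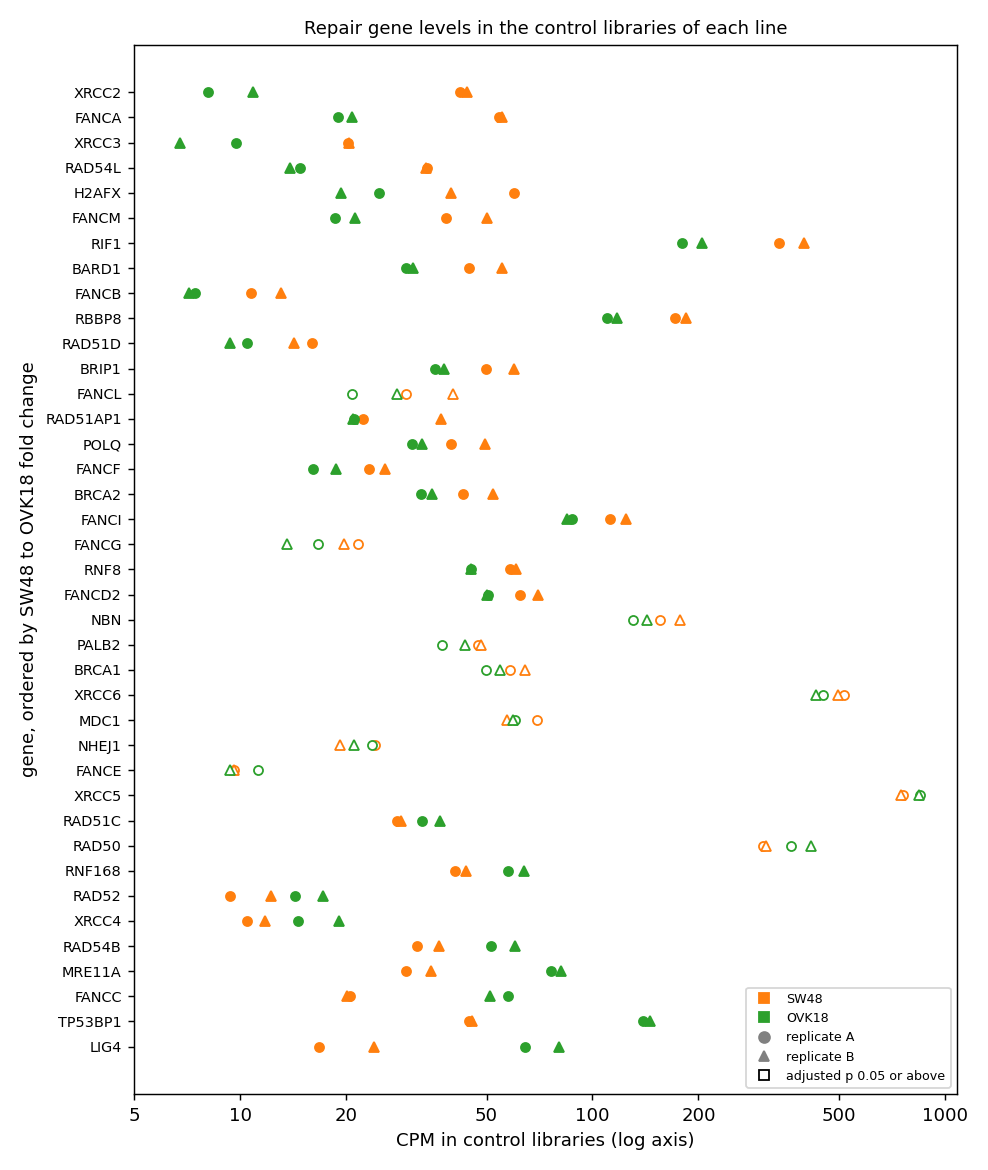
Level of each of the 39 repair genes in the control libraries of SW48 (orange) and OVK18 (green), in CPM on a log axis, with 1 point per library and the genes ordered by fold change; open points mark genes with an adjusted p of 0.05 or above. XRCC2 at the top and LIG4 at the bottom have the widest gaps, and the Ku genes XRCC5 and XRCC6 lie at the right end with the lines close together.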

How the data were processed

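Bulk mRNA libraries of 12 samples (6 groups of 2) were analysed. Per the submitters' processing notes, bcl2fastq 2.18, STAR 2.5 and Cufflinks 2.2.1 were used on genome build hg19; annotation and strand setting are not given in the sources used here. The authors deposited a table of raw counts per gene symbol and a second table of values read here as FPKM, since no header names the unit. The 92 spike-in features, all at 0, were left out. Counts were fitted in R 4.3.3 with edgeR 4.0.16: TMM, filterByExpr (14199 genes), 1 coefficient per group, robust quasi-likelihood fit, 6 residual degrees of freedom. The SE is the fold change divided by the square root of F. FPKM was used for levels between genes and, with limma 3.58.1, as an alternative; DESeq2 1.42.0 was another. In simulated counts for sgWRN2 in SW48 (14199 genes, 200 changed), the test found 31 percent of genes changed 1.5-fold and 89 percent of those changed 2-fold. Of its calls 3.23 percent were false. The simulation gave both lines the same expected levels, left low-count genes unchanged and drew all libraries independently. The real libraries differ in these respects, so these rates may not hold for them. The members and lists were chosen with earlier results of these data known. Values per library are given for genes called in a guide contrast, the 3 smallest p with both guides, and the 4 highest and 4 lowest differences between controls; genes given beyond these were chosen after their values were seen. Promoter sequences are RefSeq's, on another build than hg19, and carry no count data.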

Additional observations from a re-analysis of the deposited data

How the results depend on the processing

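The number of repair genes called for sgWRN2 in SW48 (11) ran from 3 to 12 when 1 library was left out, with 10 with RLE factors and 13 to 15 with DESeq2, FPKM or no filter on low counts. For both guides in SW48 (1 called) it was 9 with no filter, 7 with DESeq2, 4 with limma on FPKM at either pseudocount, 0 with the 6 SW48 libraries alone, 0 without the sgWRN2 libraries, and 0 to 3 with 1 library left out. For sgWRN2 against sgWRN3 in SW48 (4 called) it was 12 with no filter, 0 with the SW48 libraries alone, and 0 to 5 with 1 library left out. In OVK18, where 0 were called, sgWRN2 gave 3 with no filter or DESeq2 and 0 to 1 with 1 library left out (1 without SW48 sgCh2-2 replicate A or B, as also for the next contrast), and sgWRN2 against sgWRN3 gave 2 with no filter or DESeq2, 1 with limma on FPKM, and 0 to 1 with 1 library left out. Over all genes, no filter and DESeq2 gave 688 and 705 calls for sgWRN2 in SW48 (437 as reported), 292 and 266 for both guides in SW48 (123), 334 and 282 for sgWRN2 against sgWRN3 in SW48 (134), 439 and 406 for sgWRN2 in OVK18 (113), and 518 and 473 for sgWRN2 against sgWRN3 in OVK18 (106). With 1 library left out the lowest of these counts were, in that order, 148, 0, 3, 18 and 11. The controls of the lines differed in 28 genes, and in 20 to 30 with 1 library left out. The cause of these changes was not tested. Of 614 values of single genes under the alternatives, 536 kept their direction and their side of the threshold, 62 lost and 15 gained a call, and 1 turned its sign: RAD51AP1 in OVK18 with both guides (0.0727 without the sgWRN2 libraries). The median over the 39 with sgWRN3 in OVK18 ran from -0.10 to 0.00144 with 1 library left out, the latter without OVK18 sgCh2-2 replicate B. When 1 library was left out of a group, the lone library was assumed to vary like the other groups.

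A replicate block on the letters A and B gave 6 calls for sgWRN2 in SW48 (all among the 11; 265 over all genes) and 0 for both guides in SW48 (28 over all genes), and moved no other count of repair genes by over 1.5 times. The letters are not said to mark a batch, and they do not pair the libraries of all guides alike. Deviations from the group means correlated at 0.63 in SW48 and 0.64 in OVK18 between sgCh2-2 and sgWRN3. Between sgCh2-2 and sgWRN2 they correlated at -0.26 and -0.31. The main fit ignores such shared deviations. Its p-values may therefore be too large for sgWRN3 and too small for sgWRN2. With the block, 0 of all genes were called with sgWRN3 in SW48 and 0 in OVK18. The part of the letters in the calls was not tested.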
